A study of Mus musculus with 10 samples.

Results

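Interstitial collagens and the matrix proteins that assemble with them were followed in B16 tumors, transplantable melanomas of C57BL/6 origin. The 40 genes were chosen by protein family: 16 collagen chains, 5 proteoglycans, 8 matrix glycoproteins, 7 elastic fibre proteins and 4 enzymes that process or cross-link collagen. Of these, 38 were measured among 18193 genes on the array; Fbn1 and Loxl2 had no probe set assigned to their symbol alone and are not analysed here. RNA of whole dissected tumors, broken up mechanically to single cells, was hybridised to 1-colour Affymetrix Mouse430_2 arrays. The wild-type group held 5 tumors and the Bach2-deficient group 5, all on the C57BL/6 background with no further allele or agent in the labels. Bach2 encodes a transcriptional repressor of lymphocytes, and the labels do not say which part of it was deleted, whether host or tumor cells carried the deficiency, or how old and of which sex the animals were. Values are log2 expression, each gene is read by its brightest probe set, and a change is the Bach2-deficient mean less the wild-type mean, given with its limma standard error (SE). A gene is said to have fallen or risen at a Benjamini-Hochberg adjusted p under 0.05 over all 18193 genes.

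Interstitial matrix is the fibre network between cells, laid down in a tumor mainly by fibroblasts and by contractile cells of vessel walls. Collagen I, III and V chains form the banded fibrils, collagen VI and the fibril-associated collagens connect them to their surroundings, and small leucine-rich proteoglycans such as decorin and biglycan bind the fibrils and regulate their width. Lysyl oxidases cross-link collagen and elastin, and matricellular glycoproteins such as tenascin C and the thrombospondins act on cells more than they bear load. Melanoma cells and macrophages also make some of these proteins, fibronectin and SPARC among them.

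Most of the matrix genes were lower in the Bach2-deficient tumors, and a smaller set did not follow. Of the 38 measured genes, 20 fell (52.6%) and 2 rose (5.26%), whereas 12.4% of all genes fell and 16.3% rose. The median change was -0.70 on the log2 scale, against -0.06 over all genes, and 33 of the 38 changes were negative. For 14 genes (36.8%) every Bach2-deficient array lay below every wild-type array, which held for 7.67% of all genes. For 1 gene (2.63%), Vcan, every Bach2-deficient array lay above, against 11.2% of all genes. The falls were commonest among the collagens, 12 of 16 chains, and numbered 8 among the 22 other genes; whether these shares differ was not tested.

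**Figure D1:**
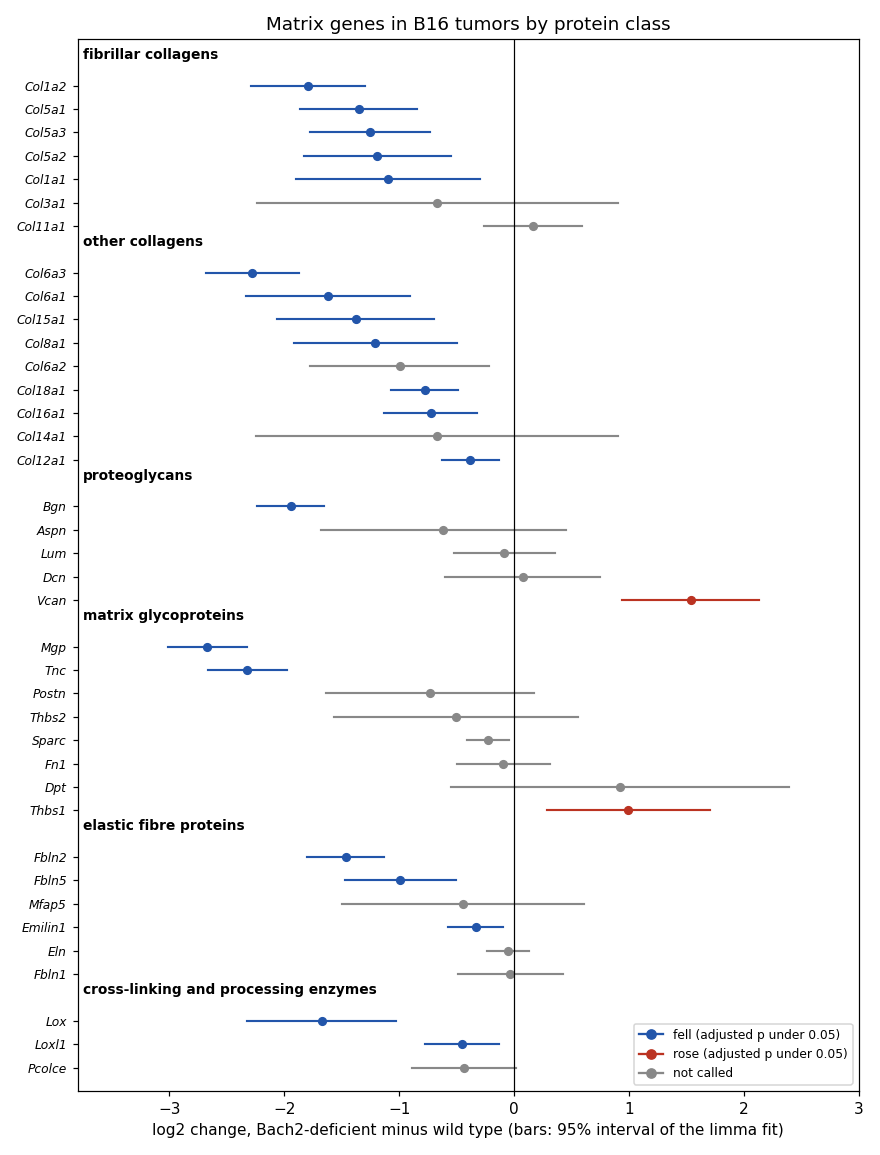
The log2 change (x axis, Bach2-deficient minus wild type, n = 5 each) of the 38 matrix genes, grouped by class, with bars for the 95% interval of the limma fit and colours for the call. Of the 16 collagens 12 fell, while Vcan (1.54) and Thbs1 (1.00) rose and Dcn, Lum, Fn1, Fbln1 and Eln sat close to 0.

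Other features of the arrays moved with the groups. Bach2 itself, on its brightest probe set, was lower without passing (-1.07, adjusted p = 0.0551). Poly-A spike controls, added to the RNA before labelling, averaged 12.13 ± 0.18 on the wild-type and 10.03 ± 0.11 on the Bach2-deficient arrays (SD, n = 5 each; exact permutation p = 0.00794, the smallest this design allows, 2-sided). Hybridization controls, added after labelling, averaged 12.36 ± 0.28 and 11.72 ± 0.14 without overlap (exact permutation p = 0.00794). The 3′ minus 5′ difference, a measure of RNA integrity, was 0.59 in both groups for Gapdh, 3.84 and 3.96 for the transferrin receptor (exact permutation p = 0.524), and 1.00 in wild type against 0.75 for β-actin (exact permutation p = 0.0556). Xist, expressed from the inactive X of females, read 11.4 to 12.2 on the wild-type arrays and 11.9 on Bach2-deficient array 2, but 4.76 to 6.61 on the other 4 Bach2-deficient arrays. The Y-linked Eif2s3y ran opposite, at 10.52 to 10.93 on those 4 arrays, 4.504 on Bach2-deficient array 2 and 5.07 to 7.68 in wild type, so the groups differ in these sex-linked transcripts. When Xist status entered the model, each change became the value of Bach2-deficient array 2 less the wild-type mean, since no other array joins the deficiency with high Xist. That side holds a single array, so only sizes of change are given here. They were -1.48 for Col6a1, -1.45 for Col15a1, -1.08 for Col16a1, -0.49 for Col12a1 and -0.63 for Col18a1, while Col8a1 moved from -1.21 to -0.61. The same array lay below all 5 wild-type arrays for 19 of the 20 fallen genes, the exception being Col8a1, and above them for both risen genes. It was also the lowest Bach2-deficient array for 16 of the 38 genes, 10 of them collagens. In whole-tumor RNA, fewer cells of a type and less RNA per cell cannot be told apart. The part of the sex-linked and control differences in the changes below was not tested further, since no labels of sex or batch are given.

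Promoter sequence of 26 of the 40 genes was held in a RefSeq table (build GRCm38.p6), in 32 windows that run from 250 bases before to 50 bases after an annotated start. Searched on both strands, the CCAAT box (letters CCAAT), a common site of the factor NF-Y in collagen promoters, was in 34.4% of these windows and in 37.4% of all 32851 windows. The TATA box (TATAAA) was in 21.9% against 13.6%, and the core shared by BACH and AP-1 factors (TGAGTCA) in 3.12%, a single window, against 5.2%. These motifs do not overlap in their letters. The stretches from 150 to 51 bases before the start are shown for genes that fell and a gene that rose with the same motif, for a gene that did not pass, and for the single BACH/AP-1 core; capitals mark the motif. Col1a2 (chr6:4505468-4505567, plus strand) and Col5a3 (chr9:20815118-20815217, minus strand) fell and Vcan (chr13:89742563-89742662, minus strand) rose, each with a CCAAT box, which begins 109, 122 and, read on the other strand, 103 bases before the start. Col3a1 (chr1:45311388-45311487, plus strand) holds the letters TATAAA 117 bases before its start. Col6a1 (chr10:76726095-76726194, minus strand) holds the BACH/AP-1 core 90 bases before its start, read on the other strand. All of these are matches of letters, and whether they act as promoter sites was not tested.
Col1a2: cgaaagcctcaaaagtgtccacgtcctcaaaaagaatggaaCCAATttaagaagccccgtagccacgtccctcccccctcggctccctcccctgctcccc
Col5a3: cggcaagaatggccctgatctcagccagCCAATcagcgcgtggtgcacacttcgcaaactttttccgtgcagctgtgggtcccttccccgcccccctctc
Vcan: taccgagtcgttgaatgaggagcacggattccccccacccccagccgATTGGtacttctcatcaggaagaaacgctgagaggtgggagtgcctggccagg
Col3a1: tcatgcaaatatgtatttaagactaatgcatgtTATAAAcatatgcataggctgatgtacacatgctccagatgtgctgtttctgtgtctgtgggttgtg
Col6a1: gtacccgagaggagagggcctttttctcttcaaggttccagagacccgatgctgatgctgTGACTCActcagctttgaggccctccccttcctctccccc
A CCAAT box thus stood before genes of both directions of change in this set.

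Among the 7 fibrillar collagen genes, 5 fell, 0 rose and 2 did not pass, with a median of -1.19. Col1a2, the α2 chain of collagen I, read 9.43, 9.54, 9.81, 9.77 and 9.99 on the wild-type arrays and 7.48, 7.46, 8.67, 7.97 and 7.99 on the Bach2-deficient arrays. The groups did not overlap, and Bach2-deficient array 3 was the highest of its group. The fall was 3.47-fold (-1.80, SE 0.22, adjusted p = 0.000511). A second probe set of Col1a2 gave -1.61 (adjusted p = 0.00914 over the 34945 single-gene probe sets).

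Col1a1, which supplies the α1 chains of the same molecule, read 10.95, 10.91, 11.67, 11.30 and 11.80 in wild type and 10.07, 9.08, 11.24, 10.67 and 10.07 in the Bach2-deficient tumors. Array 3 of the deficient group lay within the wild-type range and array 2 lowest of all. The fall was 2.14-fold (-1.10, SE 0.36, adjusted p = 0.0433), and the call held only without wild-type array 2 or without Bach2-deficient array 3 when each array was left out in turn (changes of -1.35 to -0.81), and not with array weights (adjusted p = 0.0738). Its second probe set fell as well (-1.33, adjusted p = 0.0145 over probe sets).

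Col3a1, the homotrimeric collagen of compliant tissue, read 8.42, 8.81, 10.75, 9.32 and 9.72 against 8.66, 6.69, 10.74, 9.66 and 7.94. The deficient arrays reached from below the wild-type range to its top, with array 2 lowest and array 3 level with the highest wild-type array. Its change of -0.67 had an interval of -2.24 to 0.91 and did not pass (adjusted p = 0.506), so a fall as large as that of Col1a2 lies within it. Single arrays moved it to -0.33 (without wild-type array 3), -0.15 (without Bach2-deficient array 2) and -1.17 (without Bach2-deficient array 3). The model with Xist gave -2.71, which is Bach2-deficient array 2 alone less the wild-type mean.

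The 3 collagen V genes, whose product starts fibrils and limits their width, all fell. The change was -1.35 for Col5a1 (adjusted p = 0.00212), -1.19 for Col5a2 (adjusted p = 0.0119) and -1.25 for Col5a3 (adjusted p = 0.0035), and none of the 3 overlapped between the groups. Col11a1, a minor fibrillar chain best known from cartilage, read 4.35, 4.63, 4.46, 4.22 and 4.36 against 4.15, 4.29, 5.09, 4.36 and 4.96. All but 1 of those values lie under 4.98, the 30th percentile of gene means, which serves here as a dim level in place of a detection call, and its change of 0.17 did not pass (adjusted p = 0.539).

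**Figure D2:**
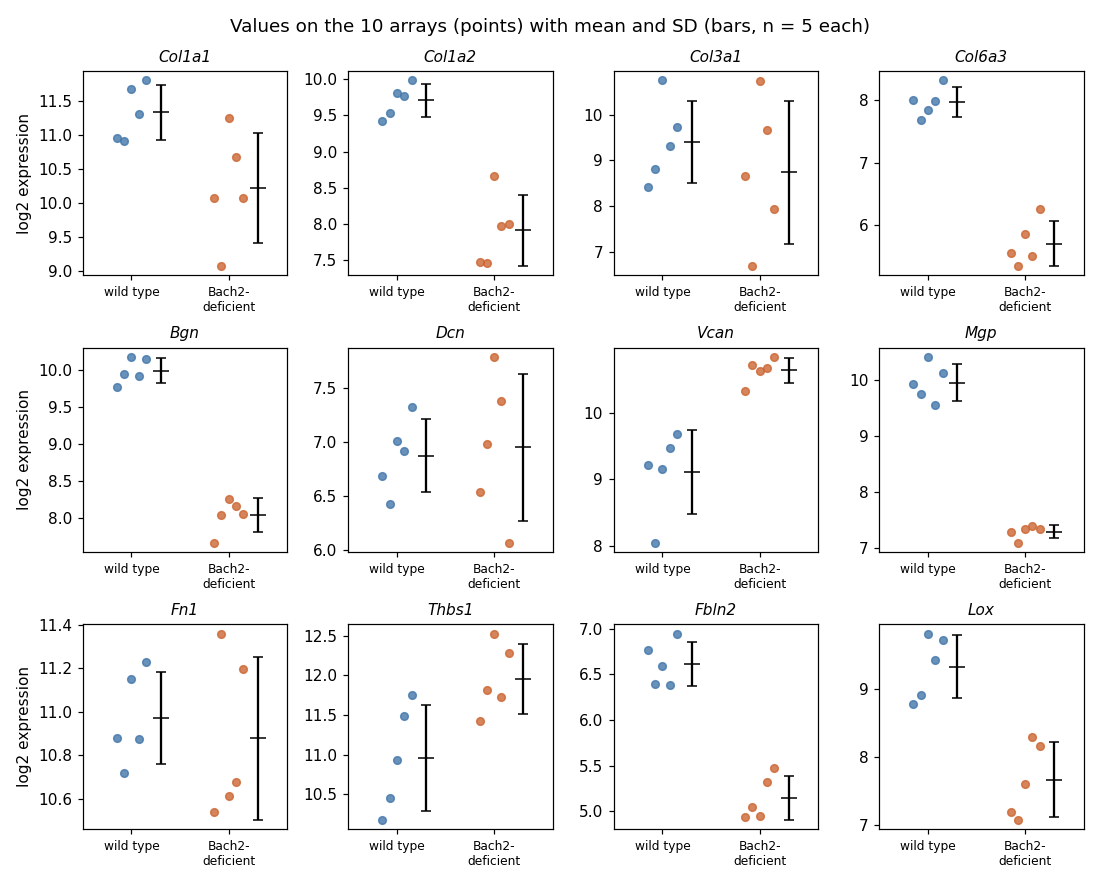
Log2 expression on each array (points) of 12 matrix genes, with group mean and SD (bars, n = 5 each); each panel has its own y axis. Col1a2, Col6a3, Bgn, Mgp, Fbln2 and Lox do not overlap between the groups, Vcan lies higher on all 5 Bach2-deficient arrays, and Col3a1, Dcn and Fn1 overlap.

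Of the 9 other collagen genes, 7 fell and 2 did not pass, with a median of -0.99. Collagen VI forms beaded filaments around cells from 3 different chains. Col6a3, its long α3 chain, read 8.004, 7.68, 7.85, 7.998 and 8.33 in wild type and 5.55, 5.34, 5.85, 5.49 and 6.25 in the Bach2-deficient tumors, far apart on every array. This 4.85-fold fall (-2.28, SE 0.18, adjusted p = 0.00011) was the largest among the collagens measured. Col6a1 read 6.94, 6.28, 7.02, 7.08 and 8.04 against 5.34, 5.59, 6.09, 5.52 and 4.71. It fell 3.07-fold without overlap (-1.62, SE 0.32, adjusted p = 0.00472), with array 5 the highest of the wild-type and the lowest of the deficient group. Col6a2 changed by -0.99 (SE 0.35, adjusted p = 0.0567) and did not pass; wild-type array 2 lay at 5.24, among the deficient values.

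Col15a1 and Col18a1, multiplexins of basement membrane zones whose C-terminal fragments include endostatin, changed by -1.38 (adjusted p = 0.00833) and -0.78 (adjusted p = 0.00212), both called as falls. Neither overlapped between groups, but their Bach2-deficient means (4.69 and 4.73) lay under 4.98, so the size of these falls is not exact. Col8a1, a short-chain network collagen of vessel walls, fell (-1.21, adjusted p = 0.0183), as did the fibril-associated Col16a1 (-0.73, adjusted p = 0.014), both with overlap. Col12a1, a fibril-associated collagen, read 5.58, 5.18, 5.44, 5.65 and 5.70 against 5.18, 5.01, 5.13, 5.13 and 5.19. Its fall was the smallest called among the collagens (-0.38, adjusted p = 0.0271) and was lost on leaving out any of wild-type arrays 1, 4 and 5 or Bach2-deficient arrays 2, 3 and 4 (changes of -0.46 to -0.33). Col14a1, of the same subfamily, ranged from 4.80 to 7.32 in wild type and from 4.53 to 8.19 in the deficient group, and its change of -0.67 did not pass (adjusted p = 0.505). That value moved to -1.05 and -0.42 without wild-type arrays 2 and 4, and to -0.39 and -1.31 without Bach2-deficient arrays 2 and 5 (adjusted p = 0.742 and 0.0888). In the model with Xist, which rests on Bach2-deficient array 2 alone, it was -1.79.

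Of 5 proteoglycan genes, 1 fell, 1 rose and 3 did not pass, with a median of -0.08. So few calls cannot be set apart from the shares over all genes (12.4% fell, 16.3% rose). Bgn, biglycan, read 9.76, 9.95, 10.17, 9.91 and 10.14 in wild type and 7.67, 8.04, 8.26, 8.17 and 8.07 in the Bach2-deficient tumors. No array came near the other group, and the fall was 3.85-fold (-1.94, SE 0.13, adjusted p = 5.57e-05). All 3 of its probe sets fell, with changes of -2.07 to -1.79.

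Dcn, decorin, its closest relative, read 6.68, 6.43, 7.002, 6.92 and 7.33 against 6.53, 6.98, 7.78, 7.37 and 6.06. These values overlapped throughout, and the change was 0.08 (interval -0.60 to 0.75, adjusted p = 0.871). The sign depends on the probe set: a second one gave -1.78 without passing (adjusted p = 0.0697 over probe sets), and repeated quantile normalization gave -0.03. Lum, lumican, which also binds fibrils, read 4.73, 4.45, 4.91, 5.33 and 4.53 against 4.56, 4.32, 4.91, 5.12 and 4.62. It stayed near or under the dim level in both groups (-0.08, adjusted p = 0.772). Aspn, asporin, a further member of the family, was also dim, with means of 4.07 and 3.46 (-0.61, adjusted p = 0.361, and -0.26 without wild-type array 3). Its second probe set, dim in both groups too, fell (-0.59, limma adjusted p = 0.014 over probe sets).

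Vcan, the large hyaluronan-binding proteoglycan versican, went the other way. It read 9.21, 8.04, 9.15, 9.47 and 9.68 in wild type and 10.33, 10.72, 10.63, 10.69 and 10.85 in the Bach2-deficient tumors, with wild-type array 2 lowest and no overlap. The rise was 2.9-fold (1.54, SE 0.27, adjusted p = 0.00242), and 4 of its 8 probe sets rose. In the model with Xist the change was 1.61, but that value rests on Bach2-deficient array 2 alone and no call is drawn from it. Monocytes and macrophages express versican too. On the same arrays 9 of 11 macrophage marker genes rose, with a per-array list mean of 9.29 to 10.6 in wild type and 10.8 to 11.6 in the Bach2-deficient tumors, with the smallest adjusted p for Csf1r (1.93, adjusted p = 0.000483) and Fcgr1 (2.07, adjusted p = 0.000737), and their part in the rise of Vcan was not tested.

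Matrix glycoproteins held both the largest falls and genes that hardly differed. Of these 8 genes, 2 fell, 1 rose and 5 did not pass, with a median of -0.36, where 12.4% of all genes fell and 16.3% rose. Mgp, matrix Gla protein, an inhibitor of calcification made by vascular and connective tissue cells, read 9.94, 9.76, 10.42, 9.56 and 10.13 against 7.29, 7.09, 7.35, 7.40 and 7.34. The deficient arrays lay close together and far below every wild-type array, and the 6.36-fold fall (-2.67, SE 0.15, adjusted p = 3.53e-05) was the largest of the 38 genes. Tnc, tenascin C, an anti-adhesive protein of remodelling tissue, fell 5.01-fold from 9.57 ± 0.23 to 7.25 ± 0.27 (SD, n = 5 each; adjusted p = 5.57e-05).

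Fn1, fibronectin, read 10.88, 10.72, 11.15, 10.87 and 11.23 in wild type and 10.54, 11.36, 10.61, 10.68 and 11.20 in the Bach2-deficient tumors. The highest and the lowest of the 10 values both belonged to the deficient group, and the change of -0.09 (interval -0.50 to 0.31, adjusted p = 0.725) turned positive with array weights (0.0106) and in the model with Xist (0.39). Sparc, a collagen-binding glycoprotein, read 13.12, 13.04, 13.01, 13.14 and 13.15 against 13.02, 12.82, 12.87, 12.75 and 12.89. The groups overlapped at a single pair of arrays, wild-type array 3 and Bach2-deficient array 1. Its change of -0.22 did not pass (adjusted p = 0.0654), while both of its other probe sets fell (-0.48 and -0.46, adjusted p = 0.0167 and 0.0304 over probe sets).

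Postn, periostin, which recruits lysyl oxidase activity to collagen, read 6.65, 5.77, 7.51, 6.81 and 7.88 against 6.31, 5.99, 6.96, 6.41 and 5.28. The groups overlapped, with Bach2-deficient array 5 lowest of all, and the change of -0.73 did not pass (SE 0.41, adjusted p = 0.202). Dpt, dermatopontin, changed by 0.92 (SE 0.66, adjusted p = 0.32), and Thbs2, thrombospondin 2, by -0.51 (SE 0.48, adjusted p = 0.45). The wild-type arrays of Thbs2 ran from 7.19 to 9.86, whereas the deficient arrays all lay between 8.19 and 8.40. Its change was -0.90, -0.29 and -0.23 without wild-type arrays 2, 4 and 5, and that of Dpt 0.53 without wild-type array 2 and 0.55 without Bach2-deficient array 4.

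Thbs1, thrombospondin 1, an activator of latent TGF-β and inhibitor of angiogenesis, read 10.18, 10.45, 10.93, 11.48 and 11.74 in wild type and 11.42, 11.81, 12.52, 11.72 and 12.28 in the Bach2-deficient tumors. Wild-type arrays 4 and 5 overlapped the deficient group. The rise of 1.00 (SE 0.32, adjusted p = 0.0404) was lost on leaving out any of wild-type arrays 1, 2 and 3 or Bach2-deficient arrays 2, 3, 4 and 5 (changes over all 10 such fits of 0.80 to 1.19). The model with Xist, which rests on Bach2-deficient array 2 alone, gave 0.86. Its second probe set rose by 1.71 (adjusted p = 0.00817 over probe sets).

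Of 6 elastic fibre genes, 3 fell and 3 did not pass, with a median of -0.39. Fbln2, fibulin 2, a binding partner of fibrillin and versican, read 6.76, 6.39, 6.59, 6.38 and 6.94 in wild type and 4.94, 5.05, 4.95, 5.32 and 5.47 in the Bach2-deficient tumors. The groups stood clear of each other, and the fall was 2.76-fold (-1.47, SE 0.15, adjusted p = 0.000245). Fbln5, which is needed for elastic fibre assembly, fell (-0.99, adjusted p = 0.00754), with deficient array 1 within the wild-type range. Emilin1, an elastin-associated glycoprotein, fell (-0.33, adjusted p = 0.0412); averaged over its 2 probe sets it did not pass (-0.10, adjusted p = 0.465), and it kept the call only without wild-type arrays 1 or 5 or Bach2-deficient array 5 when single arrays were left out (-0.38 to -0.28).

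Fbln1, fibulin 1, read 7.88, 7.49, 6.82, 7.73 and 7.36 against 7.83, 7.43, 7.48, 7.32 and 7.05. The groups overlapped fully, with a change of -0.03 (adjusted p = 0.921); 1 of its 3 probe sets fell (-0.90, adjusted p = 0.0114 over probe sets) and another gave 0.23 without passing. Eln, elastin, read 5.41, 5.54, 5.61, 5.42 and 5.44 against 5.43, 5.35, 5.42, 5.39 and 5.57. All 10 values stood close together, and the interval of the change was -0.24 to 0.13 (-0.05, adjusted p = 0.656). Mfap5, a microfibril protein, changed by -0.44 (SE 0.47, adjusted p = 0.51), with wild-type array 3 at 8.001 and the other four between 5.58 and 6.62; the change was -0.04 without that array and -0.71 without Bach2-deficient array 4.

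Among the 3 measured enzymes of cross-linking and processing, 2 fell. Lox, lysyl oxidase, which oxidises lysines of collagen and elastin to start cross-links, read 8.79, 8.92, 9.82, 9.43 and 9.73 in wild type and 7.19, 7.07, 7.60, 8.29 and 8.17 in the Bach2-deficient tumors. Without overlap it fell 3.19-fold (-1.67, SE 0.29, adjusted p = 0.00242), and a second probe set of Lox fell by 1.77. Loxl1, the elastin-directed paralog, lay under the dim level in both groups; its fall of -0.45 (adjusted p = 0.0411) kept its call only without wild-type arrays 1 or 4 or Bach2-deficient array 3 among the fits without 1 array (-0.50 to -0.34), and lost it with repeated quantile normalization (adjusted p = 0.106). Pcolce, which enhances removal of the procollagen C-propeptide, read 10.71, 10.19, 10.40, 10.80 and 10.88 against 10.79, 10.11, 10.24, 9.78 and 9.89. Deficient arrays 1 and 3 lay within the wild-type range and arrays 2, 4 and 5 below it, and the change of -0.44 did not pass (SE 0.20, adjusted p = 0.136).

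**Figure D3:**
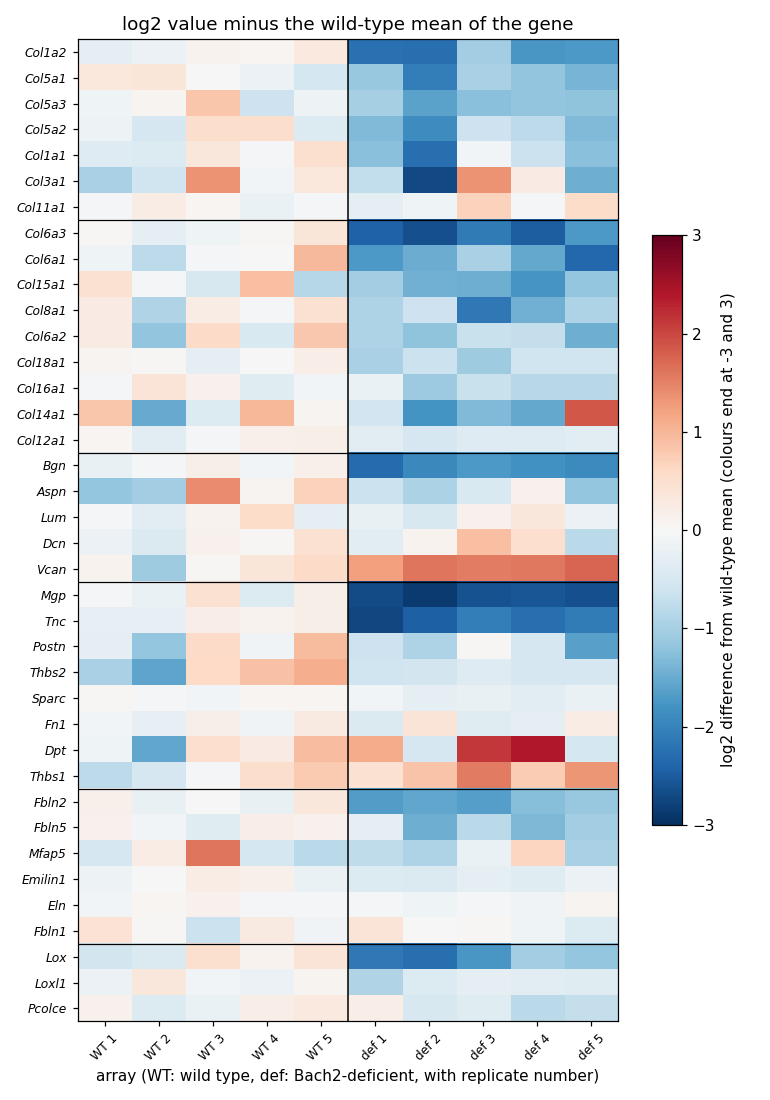
Log2 value of each of the 38 matrix genes (rows, grouped by class as in the plot of changes) on each array (columns), minus the wild-type mean of the gene. The rows of Mgp, Tnc, Col6a3 and Bgn are blue on all of the 5 Bach2-deficient arrays, whereas Col3a1, Col14a1 and Dpt differ between arrays of 1 group.

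Variation inside the groups was shared by many genes. In wild type, array 5 was the highest for 18 of the 38 genes and array 2 the lowest for 17. In the Bach2-deficient group, array 3 was the highest for 15 genes, 8 of them collagens, and array 2 the lowest for 16, 10 of them collagens. The SD within a group ran from 0.06 (Sparc) to 1.20 (Thbs2) in wild type and from 0.07 (Col12a1) to 1.56 (Col3a1) in the deficient group, with medians of 0.36 and 0.37. Without Bach2-deficient array 2, 16 genes fell and 1 rose, where 7.63% of all genes fell and 12.5% rose. Without array 3, 18 fell and 1 rose, where 9.31% of all genes fell and 14.1% rose.

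Related genes changed unequally. For 11 pairs of chains of 1 collagen or of close paralogs, the log2 difference of the pair was taken on each array and compared between the groups with a 2-sided exact permutation test, adjusted over the 11 pairs; 6 passed, each at an adjusted p of 0.0437. Bgn minus Dcn shifted by -2.02, from 3.12 ± 0.26 to 1.10 ± 0.57 (SD, n = 5 each), and Fbln1 minus Fbln2 by 1.43, both without overlap. These held in all 10 comparisons that left out 1 array. Averaged over all probe sets, Bgn minus Dcn shifted by -1.09 (adjusted p = 0.0291 by the exact permutation test) and Fbln1 minus Fbln2 by 0.61 (adjusted p = 0.0524 by the same test). The 2 probe sets of Dcn were almost equally bright in wild type (6.87 and 6.83). The second changed by -1.78 without passing, against -1.94 for Bgn, so the size of the Bgn minus Dcn shift depends on the Dcn probe set. Thbs1 minus Thbs2 shifted by 1.501 and Lox minus Loxl1 by -1.22, each kept in 6 of 10 comparisons (1.34 to 1.77 and -1.41 to -1.06). With Loxl1 under the dim level, the size of the latter shift is not exact, and with all probe sets averaged it was -0.48 and did not pass.

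Chains of 1 collagen were included in these pairs. Col1a1 minus Col1a2 shifted by 0.70, from 1.62 ± 0.21 to 2.32 ± 0.46 (SD, n = 5 each), that is, Col1a2 fell further on these probe sets; it was kept in 4 of 10 comparisons without 1 array (0.60 to 0.87). Averaged over all probe sets, one of them a dim one of Col1a2, the shift was 0.05 and did not pass. Col6a2 minus Col6a3 shifted by 1.28 and passed, and was kept in 3 of 10 comparisons without 1 array (1.06 to 1.54). Col6a1 minus Col6a3 (0.66), Col6a1 minus Col6a2 (-0.62), Col5a1 minus Col5a2 (-0.16), Col15a1 minus Col18a1 (-0.60) and Aspn minus Dcn (-0.69) did not pass. Equal changes in RNA need not read as equal changes on probe sets of different affinity.

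**Figure D4:**
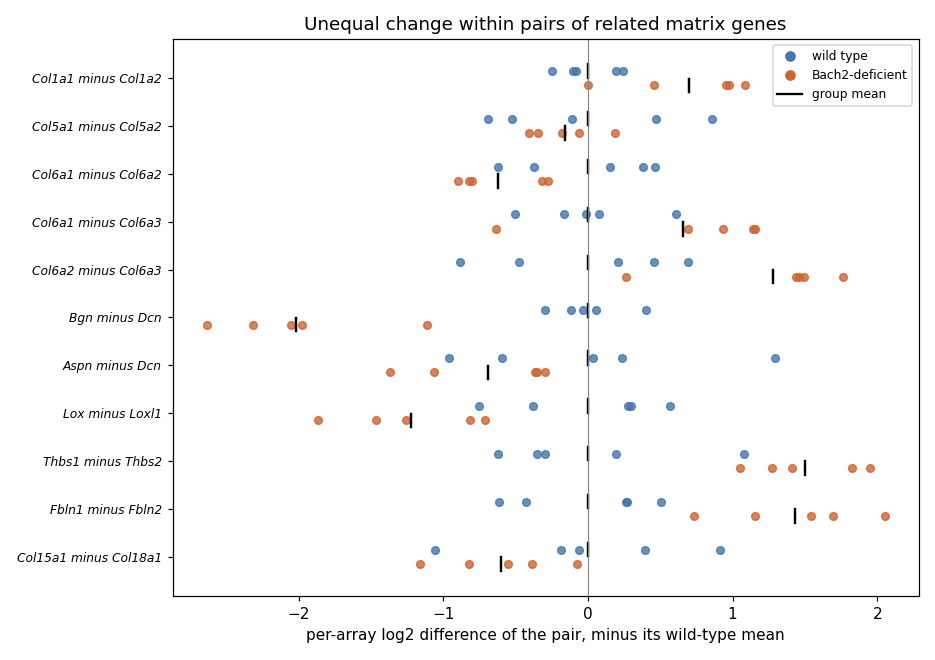
Per-array log2 difference within 11 pairs of related matrix genes (points), each minus the wild-type mean of the pair, with group means as black bars (n = 5 each). Bgn minus Dcn shifted by -2.02 and Fbln1 minus Fbln2 by 1.43, with no overlap between the groups, while Col5a1 minus Col5a2 (-0.16) overlapped.

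Genes that make and modify collagen were read from lists set by protein function. Of 20 measured biosynthesis enzymes and chaperones, 7 fell and 2 rose, with a median of -0.29. Over all genes 12.4% fell and 16.3% rose, so the rises were not above that share. Serpinh1, the collagen chaperone HSP47, fell (-0.94, SE 0.21, adjusted p = 0.00925), Mia3, which exports procollagen from the endoplasmic reticulum, fell too (-0.90, adjusted p = 0.000925), and the prolyl 3-hydroxylase family gene P3h3 did so as well (-1.36, adjusted p = 0.00131). P4ha1, a prolyl 4-hydroxylase subunit, rose by 0.42 (adjusted p = 0.0273) and the lysyl hydroxylase gene Plod3 by 0.73 (adjusted p = 0.00519). Of 8 processing and other cross-linking enzymes, 3 fell and 1 rose, with a median of -0.30. These are too few calls to set apart from the shares over all genes. Loxl3 (-1.23, adjusted p = 0.001) and Pcolce2 (-0.71, adjusted p = 0.029) fell, Bmp1, the procollagen C-proteinase, changed by -0.15 without passing (adjusted p = 0.388), and Tgm2, transglutaminase 2, rose by 2.29 (adjusted p = 0.000383). Pcolce2 lay under the dim level in both groups (means of 4.59 and 3.87), so the size of its fall is not exact.

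Of 12 matrix receptor genes, 2 fell and 3 rose, with a median of 0.15; these counts are near the shares over all genes (12.4% fell, 16.3% rose). The collagen receptor kinases Ddr1 and Ddr2 fell (-1.28 and -0.97, adjusted p = 0.00441 and 0.0221), while the collagen-binding integrin gene Itga1, also carried by resident T cells, rose by 1.69 (adjusted p = 0.0018) and the fibronectin receptor gene Itga5 by 0.59 (adjusted p = 0.0303). Of 17 further leucine-rich proteoglycan and elastic fibre genes, 2 fell and 1 rose, with a median of -0.15, shares that are not above those over all genes. The latent TGF-β binding proteins Ltbp3 and Ltbp1 fell (-1.15 and -0.97, adjusted p = 0.00301 and 0.0042), and Emilin2 rose by 2.09 (adjusted p = 0.00229).

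Markers of the cells that could carry the matrix RNA moved unevenly. Over all genes, 12.4% fell and 16.3% rose, and the share of fibroblast markers that rose was near the latter. Of 17 fibroblast markers, 5 fell and 3 rose, with a median of -0.16 and a per-array list mean of 6.42 to 6.93 in wild type and 6.25 to 6.89 in the Bach2-deficient tumors. Pdgfra, the receptor that defines most fibroblasts, was dim and overlapped (4.95 against 4.77; -0.18, adjusted p = 0.777). Twist1 (-1.98, adjusted p = 0.00143), Mmp2 (-1.39, adjusted p = 0.0011) and Pdgfrb (-0.61, adjusted p = 0.0214) fell, and Thy1, which T cells also carry in mice, rose by 3.32 (adjusted p = 0.000664). S100a4, present in macrophages too, rose by 0.50 (adjusted p = 0.00515). Pi16, the other risen marker, rose by 1.78 (adjusted p = 0.00899), with overlap between the groups.

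Pericyte and smooth muscle markers fell in 6 of 13 cases and rose in 0, with a median of -0.53. Their list mean was 6.29 to 7.29 in wild type and 5.76 to 5.92 in the Bach2-deficient tumors, without overlap. Acta2, smooth muscle actin, fell (-2.22, adjusted p = 0.000125), as did Myl9, a myosin light chain (-1.97, adjusted p = 8.84e-05). Of 13 endothelial markers, 4 fell and 2 rose (median -0.27), where 12.4% of all genes fell and 16.3% rose, so the rises were near the share over all genes. Egfl7 and Cldn5 fell (-1.18 and -1.46, adjusted p = 0.00131 and 0.00456), and Pecam1 and Flt1, which leukocytes also express, rose by 2.00 and 2.06 (adjusted p = 0.00277 and 0.00954). Melanocyte markers fell in 6 of 14 cases and rose in 0 (median -0.48, S100b -1.96, Oca2 -0.90), with a list mean of 11.7 to 11.8 in wild type and 10.8 to 11.7 in the deficient tumors. All 10 T cell markers rose (median 2.69), with the smallest adjusted p for Cd8b1 (4.71, adjusted p = 0.000135) and Cd247 (3.48, adjusted p = 0.000284). The part of these cells in the matrix changes was not tested.

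**Figure D5:**
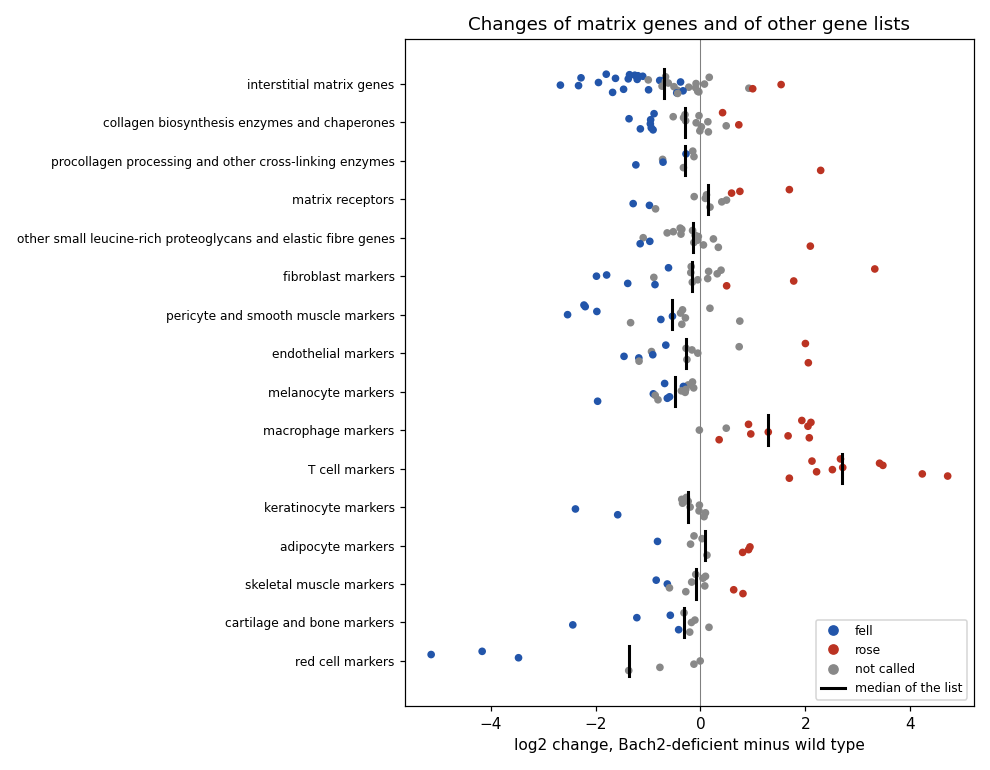
Log2 change (x axis, Bach2-deficient minus wild type) of each gene (points, coloured by call) in the 38 interstitial matrix genes and in 15 other lists, with black bars for the list median. The matrix genes have a median of -0.70 and the pericyte and smooth muscle markers -0.53, while macrophage (1.29) and T cell markers (2.69) lie to the right.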

How the data were processed

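The authors deposited log2 expression values for 45101 probe sets on 10 arrays, made with RMA (background correction, quantile normalization and probe summary) and Partek per the submitters' processing notes, whose versions are not stated there. The values, with array medians of 5.80 to 5.88, were used as deposited, without detection calls; precision is limited by the number of arrays. Control probe sets (64), probe sets with several gene symbols (932) and those with no symbol were left out, and each gene of the remaining 34945 probe sets was represented by the one with the highest mean over all arrays, giving 18193 genes.

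Groups came from the sample titles. The labels do not state that each tumor is from its own animal, and p-values then measure only the variation among these samples, which may be technical. Group differences were tested with limma 3.58.1 (R 4.3.3; linear model, empirical Bayes moderation, Benjamini-Hochberg over all genes; single probe sets over 34945), with genotype as the factor; the fit was tested on simulated data. The matrix genes, pairs and lists were chosen with earlier results of these data known. By rule, values on every array are given for the gene of each class with the smallest adjusted p, the largest fall, and the largest rise or smallest fall, and for Col1a1, Col1a2, Col3a1, Col6a1, Col6a3, Dcn, Lum, Bgn, Fn1, Sparc, Postn, Mgp, Eln and Lox. Each list is represented by its 2 called genes with the smallest adjusted p per direction, plus Pdgfra, Pdgfrb, Thy1, Serpinh1, P4ha1, Bmp1 and Acta2. Values of Thbs2 and Mfap5 on single arrays, and the change of Pi16, were added after they were seen. Alternatives were other probe set choices, a filter on dim genes, repeated quantile normalization, median centring, trended robust moderation, array weights, a replicate block, a term for Xist and leaving out each array.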

Additional observations from a re-analysis of the deposited data

Results flagged for a closer look

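Each of the 38 genes was screened in both groups for a single array far from the other four (the gap to the nearest array over 0.71 of the group's range), 76 groups in all. Chance alone gives about 1 such group in 20, and 1 was found. Loxl1 on Bach2-deficient array 1 read 3.32, against 3.82 to 3.94 on the other four, a gap of 0.798 of the range; without that array the change of Loxl1 was -0.34 and did not pass (limma adjusted p = 0.0549).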

How the results depend on the processing

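The 20 falls among 38 genes became 18 to 22 under the other normalizations, probe set choices, filters and moderations, 19 with the replicate block and 12 with the Xist term; leaving out 1 array gave 16 to 19. The 2 rises became 0 with the Xist term and 1 to 2 without 1 array. The median change stayed between -0.94 and -0.58. Of the 22 called genes, 17 kept the call in all 10 fits without 1 array, and Col1a1, Col12a1, Emilin1, Loxl1 and Thbs1 did not. Deviations of same-numbered arrays correlated at 0.01 to 0.32 over all genes, 3 of 5 under 0.1, and best with their own number for 2 of 5, so the numbers were not taken as pairs, although the median deviation of the matrix genes had 1 sign in both groups for each number (array 2, -0.27 and -0.17); the replicate block lost the call of Emilin1 alone. The repeated quantile normalization moved the median of all genes from -0.06 to -0.04.

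Some signs turned. Other probe sets gave 0.0688 for Col3a1, 0.0846 for Col5a3, -0.74 for Col11a1, 0.0338 for Col12a1, -1.78 for Dcn, -0.22 and -0.0672 for Vcan, 0.23 for Fbln1, 0.0784 for Mfap5 and 0.14 for Emilin1. Averaged probe sets gave -0.29 for Col11a1, -0.85 for Dcn, 0.23 for Col5a1 minus Col5a2 and 0.25 for Aspn minus Dcn. The Xist term, which sets Bach2-deficient array 2 alone against wild type, gave -0.12 for Col11a1, 0.39 for Fn1 and -0.49 for Dpt. Array weights gave 0.0106 for Fn1, and repeated quantile normalization -0.0269 for Dcn and 0.0022 for Lum. Without 1 array, ranges were -0.13 to 0.30 for Dcn, -0.19 to 0.0511 for Lum, -0.19 to 0.0743 for Fbln1 and -0.34 to 0.0524 for Col5a1 minus Col5a2. The cause was not tested.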

Other observations

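Cartilage and bone markers were mostly dim. Of 9 measured cartilage and bone markers, 4 fell and 0 rose (median -0.31), where 12.4% of all genes fell and 16.3% rose. Both group means were under 4.98 for 6 of them. Matn3, a matrilin of cartilage, fell by 2.43 from 6.83 ± 0.59 to 4.39 ± 0.85 (SD, n = 5 each; limma adjusted p = 0.00212); its Bach2-deficient mean lay under 4.98, so the size is not exact. Col2a1, the cartilage fibril collagen, fell by 0.58 within dim values (limma adjusted p = 0.0128).

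Marker lists of fat and skeletal muscle gave mixed changes, while the called genes of the keratinocyte and red cell lists all fell. Over all genes, 12.4% fell and 16.3% rose, and the keratinocyte and muscle counts hold too few calls to set apart from these shares. Of 11 keratinocyte markers, 2 fell and 0 rose (median -0.23): the junction genes Dsp and Perp fell (-2.38 and -1.58, limma adjusted p = 0.00833 and 0.00133). Of 8 adipocyte markers, 1 fell (Fabp4, -0.82) and 3 rose, Pnpla2 (0.92) and Lipe (0.94) among them. Of 11 skeletal muscle markers, 2 fell (Myh1 -0.84, Tnnt3 -0.63) and 2 rose (Neb 0.81, Atp2a1 0.63). Myh1 and Neb had both group means under 4.98, the dim level, so the sizes of their changes are not exact. Of 7 red cell markers, 3 fell and 0 rose, Slc4a1 (-5.13) and Alas2 (-4.16) among them, with a list mean of 5.89 to 8.51 in wild type and 4.19 to 5.18 in the Bach2-deficient tumors.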
